A study of Mus musculus with 8 samples.

Results

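The VEGF and angiopoietin systems of the adult mouse brain vessel wall were followed through 9 genes of 31053 in the count matrices. They were taken by gene symbol and comprise the VEGF receptors Kdr, Flt1 and Flt4, the coreceptor Nrp1, the ligand Vegfa, the angiopoietin receptors Tek and Tie1 and the ligands Angpt1 and Angpt2. Single-cell RNA sequencing (10x Genomics Chromium, counting the 3′ ends of transcripts by unique molecular identifiers, UMIs) was made from brain cortical plate of mice aged 8 weeks, perfused with PBS. Lama4-/- mice lack the laminin alpha-4 chain of the vascular basement membrane, and Tek-Cre:Lama5-/- mice carry a Lama5 deletion made by Cre recombinase under the promoter of Tek, itself among the 9 genes. Each genotype had its own wild type (WT), and the brains of 3 mice were pooled in each of the 4 groups. The groups were WT for Lama4-/- (2 libraries), Lama4-/- (2 deposited libraries with identical counts, used as 1), WT for Tek-Cre:Lama5-/- (2 libraries) and Tek-Cre:Lama5-/- (2 libraries), so that 7 distinct libraries were left. Libraries of a group came from a shared pool, so every test below compares pools, and its error holds no difference between mice.

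VEGF-A binds Kdr (VEGF receptor 2), the main signalling receptor of endothelial cells, and Flt1 (VEGF receptor 1), a high-affinity receptor whose soluble form traps the ligand. Nrp1 strengthens VEGF-A signalling through Kdr, and Flt4 (VEGF receptor 3) answers mainly to VEGF-C and VEGF-D. Angiopoietin-1 from cells around the vessel activates Tek (Tie2) and keeps endothelium quiescent, angiopoietin-2 can oppose it, and Tie1 is a partner of Tek that modulates its signal.

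The libraries held 35479306 to 48314458 UMIs and between 2204 and 5012 endothelial-like cells each, 26380 in all. Any 2 libraries shared at most 27 cell barcodes. Cells were clustered and named from marker genes that included none of the 9 members. CPM below is the usual depth-scaled count, taken over all UMIs of the cells named in the library. Gene values given with a test were also scaled by the TMM method. So were those that set the Lama4-/- library against its WT, while marker sums were not. All 10 endothelial markers were detected in the endothelial-like cells of every library, at a summed level of 14891 to 21194 CPM. In these cells the Lama4-/- library held 1 Lama4 UMI against 1724 in its 2 WT libraries together. Lama5 was lower in the Tek-Cre:Lama5-/- libraries, at 22.6 and 24.8 CPM against 41.7 and 40.4 CPM in WT (log2 fold change -0.79, edgeR adjusted p = 5.28e-13), so a reduced level remained. 

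In the GENCODE annotation of GRCm38, all 9 genes are protein-coding. Kdr lies at chr5:75932827-75978458 on the minus strand, Flt1 at chr5:147561604-147726011 on the minus strand and Flt4 at chr11:49609263-49652739 on the plus strand. Nrp1 lies at chr8:128358604-128503363 on the plus strand and Vegfa at chr17:46016993-46032369 on the minus strand. Tek lies at chr4:94739289-94874976 on the plus strand and Tie1 at chr4:118471191-118490061 on the minus strand, on the same chromosome. Angpt1 lies at chr15:42424723-42676977 on the minus strand and Angpt2 at chr8:18690263-18741562 on the minus strand. The counts are per gene and do not separate soluble from membrane forms of Flt1 or splice forms of Vegfa.

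RefSeq promoters on GRCm38.p6 were found for 7 of the 9 genes. The 250 bases before the start site are shown for 3 receptors restricted to endothelium and for Vegfa, whose level peaked outside it. They are chr5:75978456-75978705 (minus strand) for Kdr, chr5:147726012-147726261 (minus strand) for Flt1, chr4:94739039-94739288 (plus strand) for Tek and chr17:46032378-46032627 (minus strand) for the upstream start of Vegfa. Each is printed 5′ to 3′ in the direction of transcription, and capitals mark GGAAG or its reverse complement CTTCC, a core met in binding sites of ETS factors, a family active in endothelium.
Kdr: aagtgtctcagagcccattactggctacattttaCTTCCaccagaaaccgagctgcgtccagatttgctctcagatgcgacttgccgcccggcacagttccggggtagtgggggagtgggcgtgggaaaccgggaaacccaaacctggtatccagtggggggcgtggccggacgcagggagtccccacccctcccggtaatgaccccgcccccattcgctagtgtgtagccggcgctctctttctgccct
Flt1: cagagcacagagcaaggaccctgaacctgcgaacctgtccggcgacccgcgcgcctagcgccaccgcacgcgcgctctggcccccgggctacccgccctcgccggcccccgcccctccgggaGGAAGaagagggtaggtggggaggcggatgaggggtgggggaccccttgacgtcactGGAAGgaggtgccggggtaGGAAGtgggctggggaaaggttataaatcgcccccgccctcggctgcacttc
Tek: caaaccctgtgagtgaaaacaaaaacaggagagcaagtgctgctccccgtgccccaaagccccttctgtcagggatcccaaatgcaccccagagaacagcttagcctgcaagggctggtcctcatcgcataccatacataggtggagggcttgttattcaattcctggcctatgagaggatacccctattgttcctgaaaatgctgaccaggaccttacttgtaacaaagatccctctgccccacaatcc
Vegfa: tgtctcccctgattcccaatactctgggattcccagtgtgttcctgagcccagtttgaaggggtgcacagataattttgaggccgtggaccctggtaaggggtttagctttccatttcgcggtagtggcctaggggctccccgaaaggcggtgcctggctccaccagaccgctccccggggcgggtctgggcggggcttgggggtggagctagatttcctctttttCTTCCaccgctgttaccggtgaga
The motif was present in 64.1% of 32851 promoter windows of this length, and 10.7% held 3 or more copies. Kdr and Vegfa held 1 copy, Flt1 held 3 and Tek held 0. Among the promoters not printed, Tie1 held 6 copies, Nrp1 held 3 and Flt4 held 1. These windows precede the RefSeq start. By the GENCODE positions above, those of Nrp1 and Flt4 lie inside the gene and that of Tie1 mostly inside. A match to these letters is a description of the window only.

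Of the 6 receptor genes, 5 had nearly all of their UMIs in endothelial-like cells. Those cells held 95.9% of the Kdr UMIs, 97.1% of Flt1, 97.2% of Flt4, 97.3% of Tek and 97.0% of Tie1. Kdr stood at 442.2 ± 11.1 CPM (SD over the 7 libraries; range 433.6 to 464.0), and the next class, pericyte-like cells, at 14.0 ± 7.5 CPM. Flt1 stood at 4799 ± 381 CPM (4301 to 5183) against 151.5 ± 37.7 CPM in pericyte-like cells. For each of the 5 genes the lowest endothelial value lay above the highest of every other class with 50 cells in each library. Below the endothelium no order could be read, since the ranges of neighbouring classes overlapped for all 5.

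In the endothelium Flt4 reached 62.8 ± 5.05 CPM (58.1 to 70.96), Tek 354.0 ± 22.5 CPM (321.3 to 383.5) and Tie1 190.2 ± 47.7 CPM (143.6 to 245.3). Tie1 had the widest relative spread of the 5, and its 3 highest values came from the Lama4 experiment. Cell-free RNA can put UMIs into cells that do not express a gene. With each cell thinned to 2000 UMIs, 55.3% of endothelial-like cells held a Kdr UMI (72.1% unthinned), against 1.88% of microglia-like cells (3.69% unthinned). The median depths before thinning were 3473 and 4652 UMIs, and thinning left out 4474 and 1265 shallower cells. The mean levels of pericyte-like cells were lower than those of the endothelium by 31.5-fold for Kdr, 31.7-fold for Flt1, 39.1-fold for Flt4 and 27.8-fold for Tie1. Whether these low levels come from pericytes or from free RNA was not tested.

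Nrp1 differed from the other receptors in being shared between classes. It was highest in perivascular macrophage-like cells, at 397.7 ± 89.8 CPM (282.6 to 523.1), where it exceeded the endothelial level in 7 of 7 libraries. Endothelial-like cells followed at 191.5 ± 31.3 CPM (165.4 to 232.5) and held 77.8% of all Nrp1 UMIs. Pericyte-like cells at 91.7 ± 35.6 CPM, microglia-like cells at 71.8 ± 5.7 CPM and smooth muscle-like cells at 58.7 ± 17.1 CPM overlapped with one another. Oligodendrocyte-like cells lacked it almost wholly, at 1.06 CPM pooled over all libraries (33 UMIs in 4165 cells), while the 166 fibroblast-like cells stood at 209.6 CPM pooled. After thinning, 51.2% of perivascular macrophage-like cells held a Nrp1 UMI (median depth 4540 UMIs), against 30.1% of endothelial-like and 12.5% of microglia-like cells.

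Astrocyte-like cells were the largest source of Vegfa among the named classes. Their level was 575.9 ± 114.2 CPM (463.8 to 789.9), 19.3-fold above pericyte-like cells, the next of the 6 classes with 50 cells in every library. They were 1901 cells in all and held 57.3% of the pooled Vegfa UMIs, from 34.5% to 71.9% by library. After thinning, 54.9% of astrocyte-like cells held a Vegfa UMI (70.8% unthinned, median depth 2915), against 1.00% of endothelial-like and 1.11% of microglia-like cells. Pericyte-like cells stood at 29.8 ± 21.5 CPM and smooth muscle-like cells at 25.4 ± 13.4 CPM, with overlapping ranges. Oligodendrocyte-like cells stood at 25.8 CPM pooled and held 11.1% of the UMIs. Fibroblast-like cells reached 48.8 CPM and choroid plexus-like cells 50.1 CPM, both pooled over libraries, since 0 and 1 of the 7 libraries held 50 such cells. The endothelial level was 5.35 ± 2.00 CPM (2.64 to 7.95).

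Angpt1 was highest in smooth muscle-like cells, at 87.8 ± 22.8 CPM (62.4 to 115.6), which held 61.9% of its UMIs. Pericyte-like cells followed at 46.1 ± 24.3 CPM (25.2 to 89.9) with an overlapping range, and smooth muscle exceeded them in 5 of 7 libraries. Astrocyte-like cells stood at 12.6 ± 6.6 CPM, below every mural value, and fibroblast-like cells at 56.3 CPM pooled. Endothelial-like cells stood at 1.57 ± 0.27 CPM.

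Angpt2 was shared between mural and endothelial cells. Pericyte-like cells had the highest mean and the widest spread, 68.1 ± 46.1 CPM. The 3 libraries of the Lama4 experiment stood at 104.8, 128.8 and 112.1 CPM and the 4 of the Lama5 experiment between 20.6 and 55.3 CPM, without overlap. The pericyte-like class joined a cluster of 1388 cells and 1 of 159 cells with Ifitm1 and Col3a1 among its leading genes. The smaller cluster met 8 pericyte, 6 smooth muscle and 3 fibroblast markers, and its part in the pericyte-like levels was not tested. Smooth muscle-like cells stood at 41.2 ± 11.7 CPM (24.3 to 54.0), and the ranges of both mural classes overlapped. The endothelial level was 11.01 ± 2.21 CPM (9.08 to 14.7), below every smooth muscle value. They were the most numerous class and held 52.8% of the Angpt2 UMIs, against 24.3% in smooth muscle-like and 13.3% in pericyte-like cells. After thinning, 2.04% of endothelial-like cells held an Angpt2 UMI, against 0.173% of microglia-like cells.

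**Figure D1:**
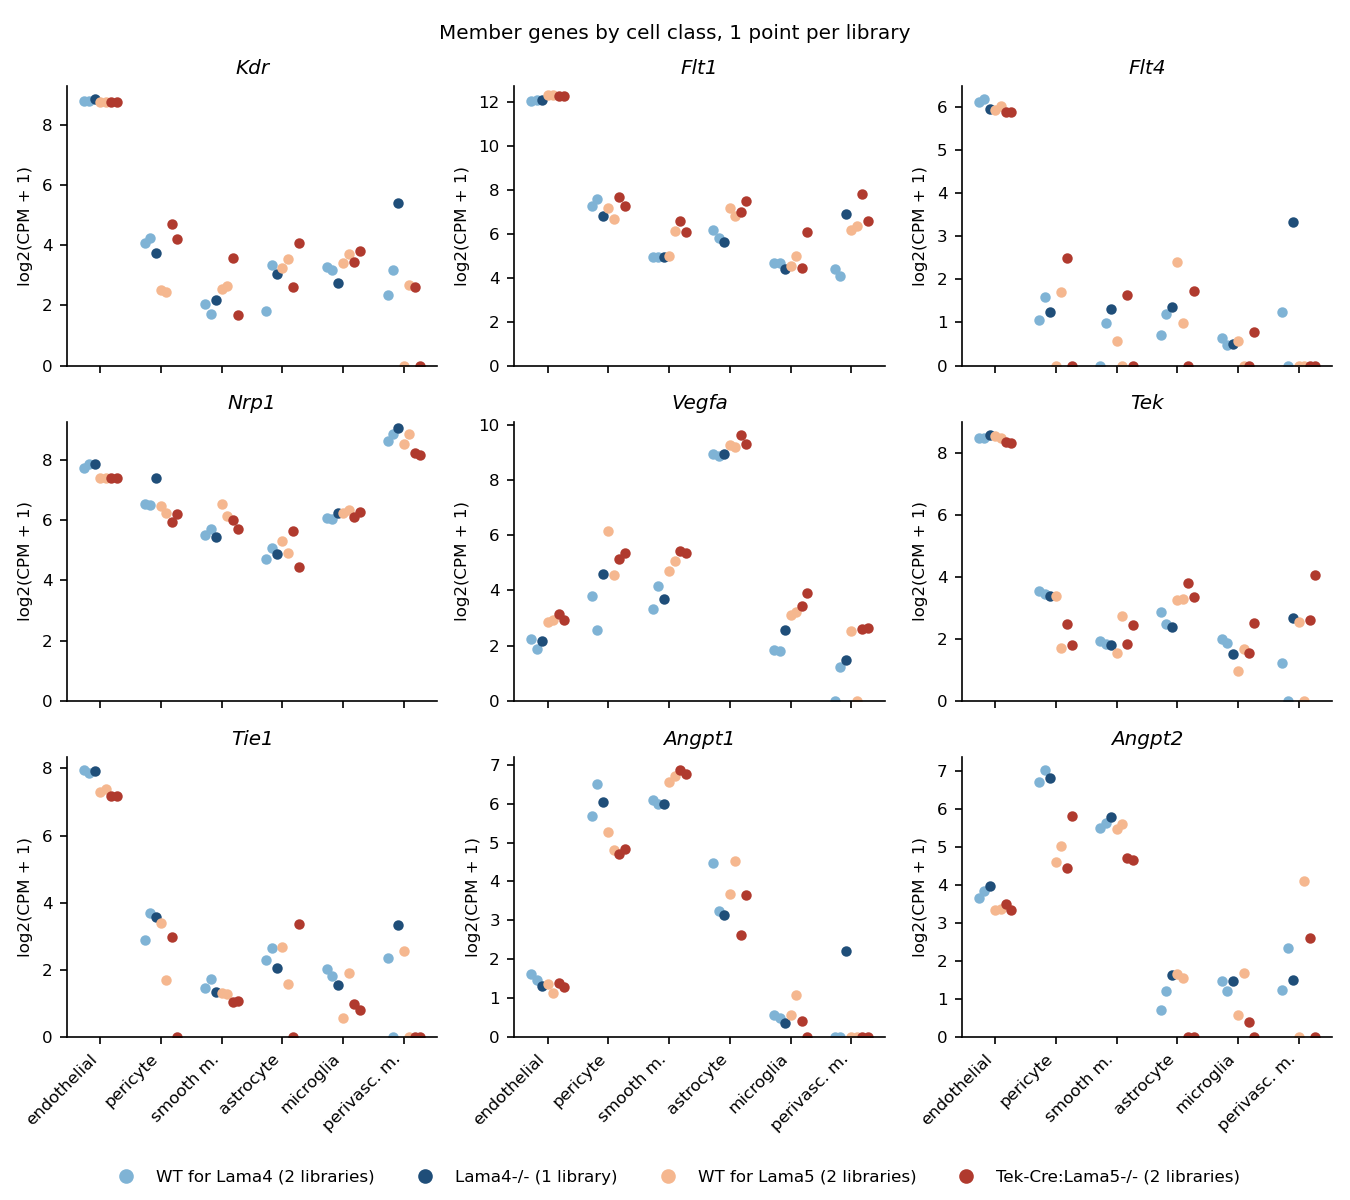
Levels of the 9 genes in 6 cell classes, as log2(CPM + 1) on the vertical axis, with 1 point for each of the 7 libraries coloured by group. Kdr, Flt1, Flt4, Tek and Tie1 stand apart in endothelial-like cells, Nrp1 is highest in perivascular macrophage-like cells, Vegfa in astrocyte-like cells, and both angiopoietins in mural cells.

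**Figure D2:**
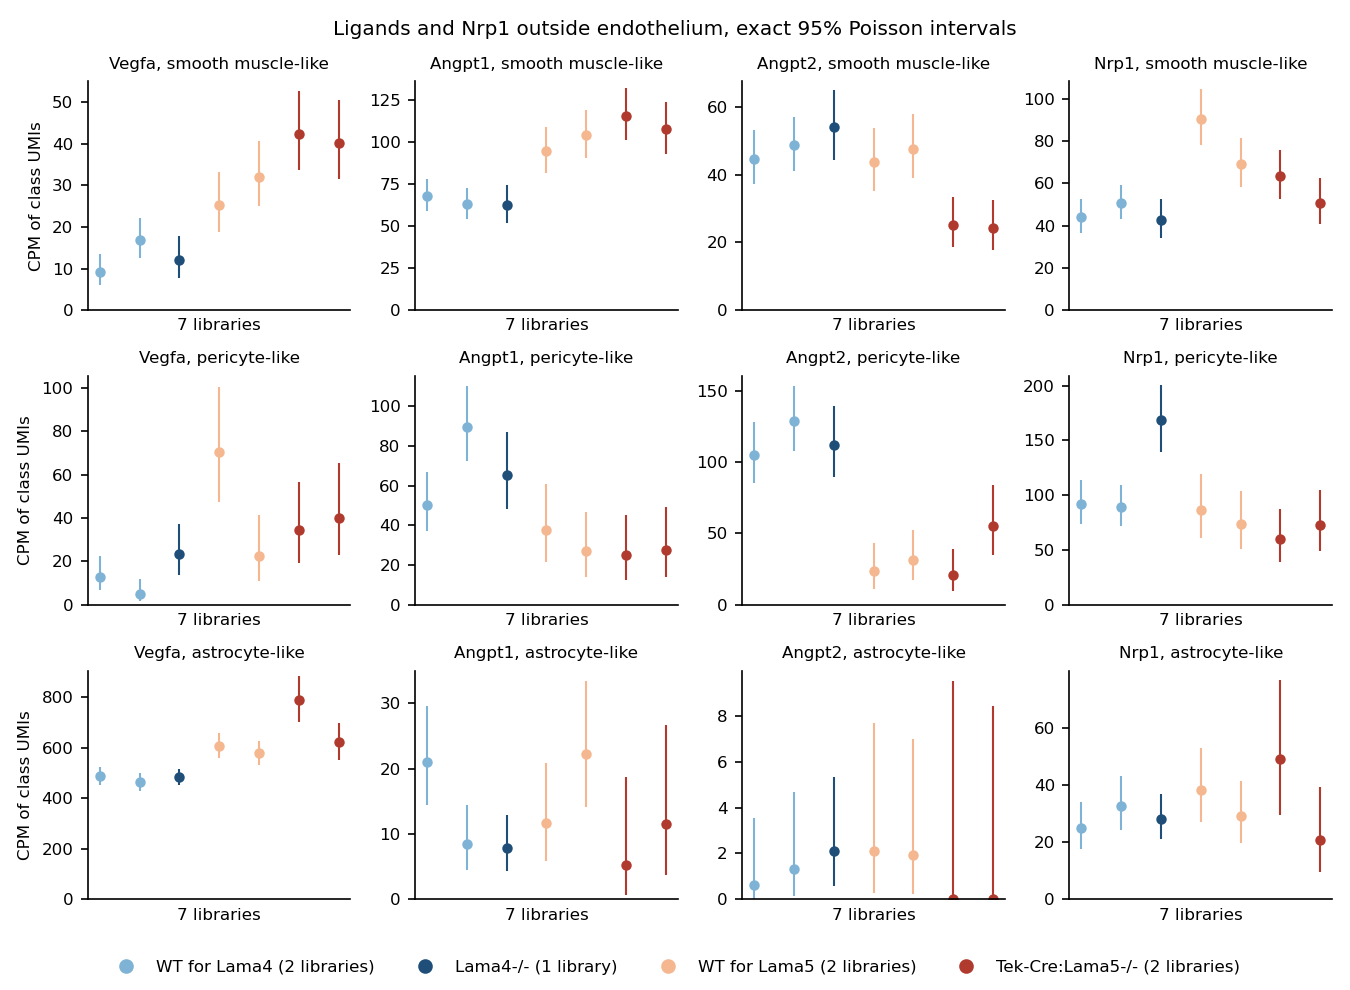
Ligands and Nrp1 outside endothelium, as CPM of the class's UMIs, with 1 point for each library and its exact 95% Poisson interval for counting error. The 4 libraries of the Lama5 experiment lie below the other 3 for Angpt2 in pericyte-like cells, and the 2 Tek-Cre:Lama5-/- libraries lie lowest for Angpt2 in smooth muscle-like cells.

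Brain endothelium changes along the vessel from artery to capillary to vein. Sub-clusters of the endothelial-like cells were grouped into zones from marker genes, none of them a member, which gave 5804 arterial-like, 10106 capillary-like and 4286 venous-like cells. The remaining 2 sub-clusters, of 3186 and 2998 cells, met no zone's rule. The one of 3186 cells met 7 arterial and 0 venous markers, with Sema3g, Bmx and Gkn3 among its leading genes. Its pooled Kdr was 439.2 CPM and its pooled Angpt2 15.9 CPM, against 260.6 and 8.21 CPM in arterial-like cells. The arterial levels by sub-cluster do not include it. Another random seed put 76.6% of cells in the same zone, and scoring each cell on the marker lists put 66.2% there. The levels below were therefore also computed with the zones by score. They are given without a test, since the same cells gave both the zones and the levels. The zones rested on 175 genes, and no member was among the genes used for clustering.

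Kdr differed between all 3 zones. It stood at 603.1 ± 40.4 CPM (560.0 to 664.2) in capillary-like cells, 443.1 ± 13.03 CPM (415.6 to 452.5) in venous-like cells and 260.5 ± 22.3 CPM (220.7 to 279.3) in arterial-like cells. The 3 ranges did not overlap, and the order held in 7 of 7 libraries. The capillary to arterial ratio ran from 2.00 to 3.01 with a median of 2.25, and from 1.75 to 2.60 with the zones by score. In the arterial sub-cluster led by Mgp, Gkn3 and Fbln5, Kdr fell to 184.6 CPM pooled.

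Nrp1 shared the capillary peak but not the order after it. It stood at 288.1 ± 50.7 CPM in capillary-like, 159.9 ± 18.9 CPM in arterial-like and 118.6 ± 14.1 CPM in venous-like cells, an order held by 7 of 7 libraries. The capillary to venous ratio ran from 2.13 to 2.75. Flt4 was highest in capillary-like cells in 7 of 7 libraries, at 74.8 ± 5.8 CPM, while venous-like (58.8 ± 6.5 CPM) and arterial-like cells (54.7 ± 5.2 CPM) overlapped.

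Flt1 was lowest in venous-like cells in 7 of 7 libraries, at 3941 ± 364 CPM. Its arterial level of 5283 ± 635 CPM and capillary level of 5009 ± 273 CPM overlapped, and the arterial one was the higher in 5 of 7. Arterial-like cells were thus the zone where Kdr was lowest and Flt1 was not, although both bind VEGF-A.

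The angiopoietin receptors varied less along the vessel and in another order. Tek was highest in arterial-like cells (405.9 ± 16.7 CPM), then venous-like (350.8 ± 29.1 CPM), then capillary-like cells (318.8 ± 25.1 CPM), in 7 of 7 libraries. The capillary to arterial ratio of Tek ran from 0.726 to 0.840. Tie1 was highest in venous-like cells in 7 of 7 libraries, at 218.1 ± 54.4 CPM against 184.1 ± 38.8 CPM in arterial-like and 171.8 ± 47.8 CPM in capillary-like cells. The Tie1 ranges of the zones overlapped across libraries.

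Endothelial Angpt2 was capillary-rich, at 19.1 ± 3.1 CPM (15.7 to 24.5) against 8.30 ± 3.30 CPM in arterial-like and 3.02 ± 2.25 CPM in venous-like cells. The capillary level was the highest in 7 of 7 libraries under both ways of zoning. The arterial level exceeded the venous one in 7 of 7 libraries by sub-cluster and in 4 of 7 by score. Endothelial Vegfa and Angpt1 had the opposite pattern. Vegfa stood at 10.4 ± 3.9 CPM in arterial-like cells against 3.12 ± 1.202 CPM in capillary-like and 3.68 ± 2.26 CPM in venous-like cells. Angpt1 stood at 5.04 ± 1.08 CPM in arterial-like cells against 0.219 ± 0.209 CPM in capillary-like cells, where 9 UMIs were counted in all libraries. The arterial level of both was the highest in 7 of 7 libraries under both ways of zoning. In the Mgp, Gkn3 and Fbln5 sub-cluster, pooled Vegfa reached 19.7 CPM and pooled Angpt1 12.3 CPM.

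Because smooth muscle lies against arteries, the levels were recomputed in endothelial-like cells without a single UMI of 10 mural markers, a check chosen after seeing the data. It left 19850 of 26380 cells. Arterial Angpt1 was 4.93 CPM in the cells left and 5.04 CPM in all arterial-like cells, pooled. Arterial Vegfa was 11.4 CPM against 10.3 CPM, and endothelial Angpt2 10.6 CPM against 10.9 CPM. Venous Angpt2 was 1.72 CPM against 2.82 CPM.

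**Figure D3:**
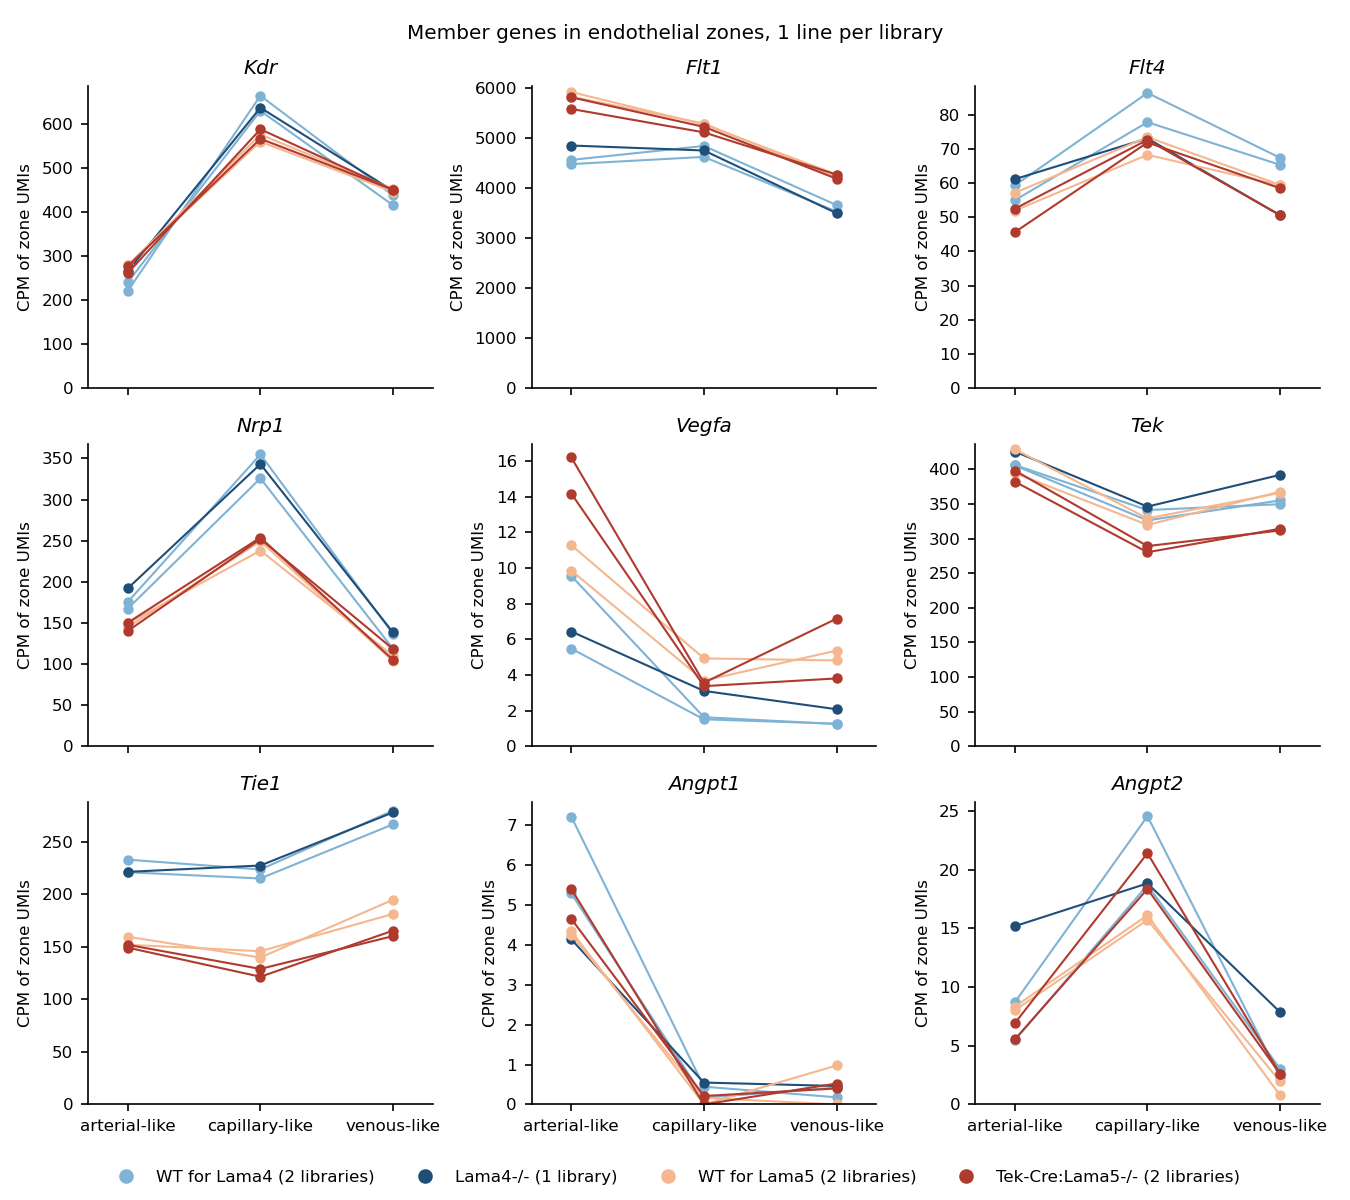
CPM of each gene in arterial-like, capillary-like and venous-like endothelial cells, with 1 line for each of the 7 libraries coloured by group. Kdr, Nrp1 and Angpt2 peak in capillary-like cells, Tek, Vegfa and Angpt1 in arterial-like cells, and Tie1 in venous-like cells, in every line.

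Genes whose zone pattern was most like each receptor's were named by Pearson's r over the 21 zone and library sums, after removal of library means, among 6246 genes at 20 CPM or more. The points share libraries and zones, so r describes likeness only. Closest to Kdr were Slco1a4, an organic anion transporter of brain capillaries (r = 0.995), Abhd2 (0.990) and Adm, which encodes adrenomedullin (0.988). Closest to Nrp1 were Gng5 (0.992), Spry1, an inhibitor of growth factor receptor signalling (0.988), and Tmem204 (0.987). Flt1 was followed by Akr1c14 (0.983), Snrk (0.981) and Pon2 (0.980), and Flt4 by Ssbp4 (0.949), Usmg5 (0.938) and 3222401L13Rik (0.934). Tek was followed by Cd2ap and Vps13d (both 0.980) and Mylk, a myosin light chain kinase (0.973), and Tie1 by Pcp4l1 (0.953), Rpl4 (0.95) and Svil (0.946).

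In endothelial-like cells of Tek-Cre:Lama5-/- mice the receptors shifted by small amounts. Between the pools, 5 of the 9 members passed the edgeR test, 3 higher and 2 lower, where 19% of the 13165 genes tested passed (10.6% higher and 8.39% lower). Kdr was 423.1 and 424.0 CPM in WT and 445.3 and 447.3 CPM in Tek-Cre:Lama5-/-. The groups did not overlap, as held for 57% of all genes tested (log2 fold change 0.075 ± 0.022 SE, adjusted p = 0.013). Nrp1 was 161.1 and 161.0 CPM in WT and 172.4 and 173.7 CPM in the knockout (0.10 ± 0.03, adjusted p = 0.00861). Flt1 was 5048 and 4979 CPM against 5199 and 5174 CPM (0.049 ± 0.017, adjusted p = 0.0401). With unscaled totals, an alternative added after seeing the data that moves all genes down together, Kdr was at -0.0034 and Flt1 at -0.030, while Nrp1 kept its sign at 0.025 and lost the call (adjusted p = 0.576).

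Both angiopoietin receptors were lower in the knockout. Tek was 360.6 and 347.2 CPM in WT and 334.6 and 331.3 CPM in Tek-Cre:Lama5-/- (-0.088 ± 0.025, adjusted p = 0.00821). Tie1 was 153.5 and 160.4 CPM against 147.5 and 148.1 CPM (-0.086 ± 0.031, adjusted p = 0.0462). With unscaled totals both stood at -0.17, a shift in the direction that this scaling gives every gene, so it is no check of these 2 calls. Unscaled totals moved the median of all genes from -0.0025 to -0.081 on the log2 scale and the calls from 1394 higher and 1104 lower to 770 higher and 2847 lower. Of the 5 calls, DESeq2 kept 0, and leaving out 1 library kept 0 (without knockout library 2) to 2 (without knockout library 1). Marker sums in these cells also moved with the knockout. The 10 endothelial markers went from 16183 and 16268 CPM in WT to 15145 and 14891 CPM, and 8 genes induced by tissue dissociation from 14078 and 14159 CPM to 12825 and 12597 CPM. The 5 erythroid markers went from 326.6 and 324.6 CPM to 74.03 and 72.1 CPM, and the 6 choroid plexus markers, of which 1 and 3 were at 0 in the WT libraries, from 1.52 and 1.70 CPM to 88.1 and 80.7 CPM. Astrocyte markers went from 176.5 and 173.2 CPM to 134.8 and 134.9 CPM, and microglia markers from 100.7 and 103.7 CPM to 128.2 and 128.3 CPM. The part of these movements in the receptor shifts was not tested.

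The remaining 4 members did not pass. Flt4 stood at 58.4 and 62.2 CPM in WT and 59.5 and 59.9 CPM in the knockout (log2 fold change -0.015 ± 0.046, adjusted p = 0.870). Vegfa was at 0.27 ± 0.13 (adjusted p = 0.157), Angpt2 at 0.15 ± 0.11 (0.361) and Angpt1, with 24 to 34 UMIs in a library, at 0.20 ± 0.28 (0.691).

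Within zones, 4 member calls were made. In capillary-like cells, where 9.18% of genes passed, Kdr was 560.1 and 544.1 CPM in WT and 581.1 and 606.7 CPM in the knockout (0.10 ± 0.03, adjusted p = 0.0124), and Nrp1 242.4 and 231.3 CPM against 258.5 and 261.8 CPM (0.14 ± 0.04, 0.0257). With doublets kept the Nrp1 call held and the Kdr call was lost. Both calls held with the zones by score (0.000742 and 0.000241). Both were lost with DESeq2 (0.161 and 0.245), unscaled totals (0.718 and 0.483), no low-count filter, the other clustering resolution and a stricter cell filter, and without WT library 2 (0.218 and 0.313) or knockout library 2 (0.326 and 0.203). Without knockout library 1 the Kdr call held (0.00837) and the Nrp1 call did not (0.117). In venous-like cells, where 10.3% passed, Tek was 357.9 and 358.3 CPM in WT and 317.7 and 323.1 CPM in the knockout (-0.16 ± 0.04, adjusted p = 0.00341). That was the most stable of the receptor calls: it held under every alternative run, including DESeq2 (0.0211) and zones by score (0.00496). Over the alternatives the value ran from -0.23 to -0.15. Unscaled totals, which moved the venous median of all genes to -0.072, are no check of a lower level. In arterial-like cells Tek stood at 417.0 and 382.9 CPM against 408.4 and 394.8 CPM, with overlap.

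In arterial-like cells, where 8.46% passed, Vegfa was 9.58 and 10.9 CPM in WT and 16.6 and 14.7 CPM in the knockout (0.61 ± 0.19, adjusted p = 0.0206). These values rest on 59 to 75 UMIs a library. The call was lost without WT library 1 (adjusted p = 0.180) or knockout library 1 (0.240), with the zones by score (0.159), with unscaled totals (0.0505) and at the other clustering resolution (0.0809). The capillary and venous values of Vegfa were -0.23 ± 0.33 and 0.20 ± 0.28. A test of whether the knockout effect differed between zones called 0.752% of 11836 genes with edgeR and 0 of the 9 members. The lowest edgeR adjusted p among the members was 0.414, for Angpt2, followed by 0.427 for Tek.

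**Figure D4:**
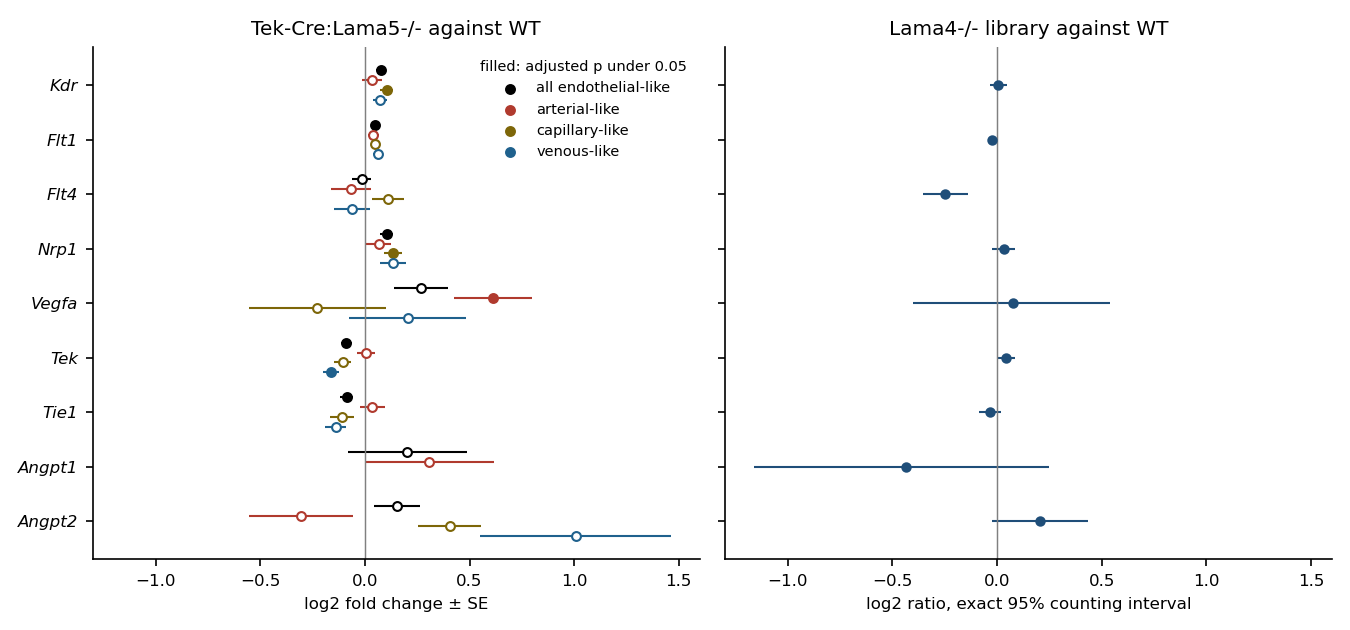
Left, log2 fold changes ± SE of the 9 genes in Tek-Cre:Lama5-/- against WT, in all endothelial-like cells and in each zone (n = 2 libraries a group; filled points have an edgeR adjusted p under 0.05). Right, log2 ratio of the Lama4-/- library to its WT libraries in endothelial-like cells with exact 95% counting intervals and no test. The receptor shift of largest size on the left is that of Tek in venous-like cells (-0.16), and those of Kdr and Flt1 in all endothelial-like cells change sign with unscaled totals.

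Outside the endothelium the angiopoietin-2 transcript was lower in smooth muscle-like cells of Tek-Cre:Lama5-/- mice. In that class 5.2% of 9640 genes passed, and 3 of the 6 members tested did. Angpt2 was 42.4 and 46.1 CPM in WT (90 and 101 UMIs) and 25.9 and 25.2 CPM in the knockout (48 and 44 UMIs). The log2 fold change was -0.79 ± 0.17 (adjusted p = 0.00561), and the groups did not overlap, as held for 47.3% of genes. The call held under each of the 12 alternatives that gave an adjusted p (0.000619 to 0.0209), among them each library left out; DESeq2 gave none for any member in this class. The smooth muscle marker sum moved from 27370 and 27460 to 26640 and 24750 CPM, and the pericyte marker sum in this class from 12120 and 11760 to 10360 and 10780 CPM, with 0 markers of either list undetected. Their part in the Angpt2 difference was not tested. In endothelial-like cells Angpt2 moved by 0.15 in the other direction. The zones did not share that direction. Angpt2 stood at -0.30 ± 0.25 in arterial-like cells (edgeR adjusted p = 0.567). It stood at 0.40 ± 0.15 in capillary-like cells (0.0675) and at 1.01 ± 0.46 in venous-like cells (0.186). The difference between the classes was -0.95 ± 0.22 (smooth muscle minus endothelial; adjusted p = 0.0216 by an edgeR interaction test added after seeing the data, which called 0.918% of 13292 genes). It lost the call without knockout library 1 (0.311), knockout library 2 (0.159) or WT library 2 (0.0506).

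Vegfa in smooth muscle-like cells was 24.5 and 31.0 CPM in WT and 43.6 and 41.8 CPM in the knockout (0.62 ± 0.17, adjusted p = 0.0365). The call was lost without WT library 1 (0.264) or knockout library 1 (0.124), with doublets kept (0.133), with unscaled totals (0.0825), without the low-count filter (0.0616) and with the stricter cell filter (0.0524). Flt1 in this class was 29.7 and 67.6 CPM against 98.0 and 68.7 CPM (0.78 ± 0.21, adjusted p = 0.0354), far under its endothelial level. Its 2 WT libraries differed by 1.19 on the log2 scale. The Flt1 call was lost without WT library 1 (0.309) or knockout library 1 (0.0804), with doublets kept (0.527) and with unscaled totals (0.0727), and without WT library 2 the value reached 1.49. The endothelial marker sum in this class was 385.5 and 512.2 CPM in WT and 454.4 and 418.2 CPM in the knockout, and its part was not tested. Angpt1 (0.27 ± 0.10, adjusted p = 0.151), Nrp1 (-0.38 ± 0.14, 0.137) and Kdr (0.50 ± 0.51, 0.683) did not pass.

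In pericyte-like cells (0.531% of genes passed) 0 of the 5 members tested passed edgeR or DESeq2. Flt1 had the lowest edgeR adjusted p of them (139.9 and 101.4 CPM against 209.6 and 156.6 CPM, log2 fold change 0.61 ± 0.19, adjusted p = 0.204). Angpt2 was 22.9 and 30.8 CPM in WT and 20.96 and 56.5 CPM in the knockout (0.49 ± 0.45, adjusted p = 0.793), on 9 to 22 UMIs a library.

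Astrocyte-like cells held the largest share of Vegfa UMIs. Their Vegfa level was 609.0 and 573.6 CPM in WT and 796.1 and 621.4 CPM in the knockout (0.26 ± 0.11, edgeR adjusted p = 0.246). There 1.8% of genes passed, and 0 of the 3 members tested did. Vegfa had the lowest adjusted p of them. Its direction was not stable: under a stricter cell filter, which left 149 and 170 WT and 86 and 95 knockout astrocyte-like cells, it was -0.48 (adjusted p = 0.0395) with 1333 genes called. Without knockout library 2 it was 0.43 (adjusted p = 0.0270). In microglia-like cells (13.2% passed) 0 of the 4 members tested passed. The lowest edgeR adjusted p-values were those of Flt1 (0.79 ± 0.31, adjusted p = 0.0882) and Vegfa (0.66 ± 0.32, 0.190). Flt1 was 21.5 and 30.2 CPM in WT and 21.8 and 69.5 CPM in the knockout, and knockout library 2 decided its value: without it the log2 value was -0.23, and without knockout library 1 it was 1.44. The endothelial marker sum in these microglia-like cells was 179.0 CPM in knockout library 2, against 103.7 CPM in knockout library 1 and 99.1 and 108.0 CPM in WT, and its part was not tested. Nrp1 stood at 72.3 and 76.3 CPM in WT and 69.1 and 78.8 CPM in the knockout (-0.011 ± 0.113).

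The Lama4-/- genotype had 1 distinct library, so no test was made. A gene was counted as different when its mean reached 5 CPM, its value lay outside both WT libraries and its log2 ratio to the WT mean reached 0.322 in size. In endothelial-like cells 592 of 9619 genes (6.15%) met that rule and 0 of the 7 members at 5 CPM or more did. Kdr was 453.3 CPM against 452.9 and 449.8 CPM in WT, a ratio of 1.00 (exact 95% interval 0.977 to 1.03, counting error only). Over the alternatives, which include unscaled totals, the log2 ratio of Kdr ran from -0.00036 to 0.057. Tek was 374.6 CPM against 365.6 and 362.1 CPM (1.03, 0.999 to 1.06), and Tie1 at 236.8 CPM and Nrp1 at 227.1 CPM lay between their WT values. Of the members at 5 CPM or more, Flt4 lay farthest from its WT libraries, at 59.2 CPM against 69.2 and 71.4 CPM (0.843, 0.783 to 0.907). Angpt2 was 14.4 CPM against 11.7 and 13.3 CPM (1.15, 0.983 to 1.35). Angpt1, under 5 CPM and on 24 UMIs, was 1.43 CPM against 2.07 and 1.77 CPM (0.741, 0.447 to 1.19). In the same cells the choroid plexus marker sum was 1047 CPM in the Lama4-/- library against 155.4 and 99.5 CPM in WT. The erythroid sum was 40.4 CPM against 157.8 and 115.96 CPM, and the dissociation gene sum 8039 CPM against 9423 and 9594 CPM. Their part in the Lama4-/- values was not tested.

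By zone, Flt4 met the rule in venous-like cells, at 49.2 CPM against 66.9 and 67.8 CPM (0.731, 0.625 to 0.852), where 14.3% of genes did. In arterial-like cells (13.3%) Angpt2 met it at 14.9 CPM against 5.50 and 8.76 CPM (2.09, 1.48 to 2.95), on 66 UMIs, and Angpt1 at 4.08 CPM against 7.27 and 5.33 CPM (0.649, 0.362 to 1.11), an interval that spans 1. In capillary-like cells (11.5%) 0 members met it. Venous Angpt2, at 7.63 CPM on 34 UMIs against 3.097 and 2.34 CPM (2.78, 1.64 to 4.76), lay under the mean of 5 CPM that the rule asks for. Outside endothelium small classes met the rule often. In pericyte-like cells (36.3%) Nrp1 was 165.1 CPM against 93.0 and 89.5 CPM (1.81, 1.43 to 2.29), and Vegfa was 22.8 CPM on 17 UMIs against 12.97 and 5.03 CPM (2.58, 1.24 to 5.37). In pericyte-like cells Flt1 met the rule downwards, at 110.1 CPM against 153.5 and 192.2 CPM (0.634, 0.492 to 0.810). So did Kdr there, at 12.1 CPM against 16.2 and 18.1 CPM (0.703, 0.296 to 1.501, 9 UMIs). In smooth muscle-like cells (24.8%) 0 members met it, and Angpt2 there was 53.4 CPM against 45.2 and 48.7 CPM (1.14, 0.901 to 1.42). Astrocyte Vegfa was 485.9 CPM, between the WT values of 489.3 and 457.8 CPM (1.03, 0.944 to 1.11; 26.3% of genes met the rule). In astrocyte-like cells 3 members met the rule downwards. Angpt1 was 7.89 CPM against 21.2 and 8.36 CPM (0.534, 0.277 to 0.974, 15 UMIs). Flt1 was 49.4 CPM against 73.2 and 55.3 CPM (0.769, 0.596 to 0.988). Tek was 4.21 CPM against 6.42 and 4.50 CPM (0.770, 0.288 to 1.88, 8 UMIs), and its interval spans 1. In microglia-like cells (11.8%) Kdr met it downwards, at 5.56 CPM against 8.88 and 8.15 CPM (0.652, 0.454 to 0.917). So did Flt1 there, at 19.7 CPM against 25.2 and 25.2 CPM (0.782, 0.648 to 0.941). Nrp1 in microglia-like cells was at 1.11 of WT (1.00 to 1.22). Their endothelial marker sum was 143.6 CPM against 157.0 and 152.4 CPM in WT. It was 873.6 against 956.0 and 1106 CPM in pericyte-like and 208.3 against 206.2 and 229.9 CPM in astrocyte-like cells. Its part in these receptor values was not tested.

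The WT libraries of the 2 experiments differed between themselves in most genes. Each knockout was therefore compared only with the WT of its own experiment, and values set side by side across experiments are descriptions. In endothelial-like cells 55.9% of genes passed edgeR between the WT pools, and 7 of the 9 members did. From the Lama4 experiment's WT to the Lama5 experiment's WT, Vegfa was higher by 1.10 on the log2 scale, Flt1 by 0.35, Tek by 0.13 and Kdr by 0.079, the last reversed with unscaled totals (-0.035). Tie1 was lower by a log2 fold change of -0.46, Angpt2 by -0.31 and Nrp1 by -0.30.

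Other genes of the pathways were taken from 4 lists chosen with earlier results of these data known. Of the other ligands and coreceptors, 6 of 8 genes were tested in endothelial-like cells of the Lama5 experiment, 2 were higher and 1 was lower (median log2 fold change -0.00043, against -0.0025 over all 13165 genes). Over all genes tested 19% passed, 10.6% higher and 8.39% lower, and the counts of each list stand beside those shares. Pgf, placental growth factor, a ligand of Flt1, was 1.71 and 1.47 CPM in WT and 2.97 and 3.20 CPM in the knockout (0.95 ± 0.22, adjusted p = 0.0015). Nrp2, a coreceptor of VEGF-C, was 44.97 and 50.9 CPM against 62.2 and 57.6 CPM (0.32, 9.75e-06). Ptprb, the endothelial phosphatase that dampens Tek, was 1719 and 1679 CPM against 1511 and 1522 CPM (-0.16, 8.8e-09). Vegfc, Vegfb and Vegfd did not pass.

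Of 18 genes of receptor signalling, 16 were tested, with 1 higher and 2 lower (median -0.049). Shb, an adaptor of Kdr, was higher (0.38, adjusted p = 0.000592), and Plcg1, the phospholipase downstream of Kdr, and Mapk3 were lower (-0.18, 0.000527, and -0.14, 0.000479). Of 11 genes known to respond to VEGF, 9 were tested, with 5 higher and 1 lower (median 0.19; 10.6% and 8.39% of all genes). Plvap, a diaphragm protein of fenestrated endothelium, was 0.269 and 0.367 CPM in WT and 1.68 and 2.42 CPM in the knockout (2.66 ± 0.37, adjusted p = 5.35e-07). Apln, the ligand apelin, was 1.84 and 1.61 CPM against 4.10 and 2.90 CPM (1.03 ± 0.22, 0.00055). Both are low transcripts. The choroid plexus marker sum in the same cells went from 1.52 and 1.70 CPM to 88.1 and 80.7 CPM, and its part in the Plvap change was not tested. Dusp5 (0.28) and Rcan1 (0.20) were higher as well, and so was Dll4, a Notch ligand, at 107.3 and 99.6 CPM against 114.3 and 121.8 CPM (0.19, adjusted p = 0.000224). Cd34 alone passed downwards, at 528.9 and 509.8 CPM against 487.4 and 474.4 CPM (-0.11, edgeR adjusted p = 0.000348).

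Of 13 genes of oxygen sensing and hypoxia, 12 were tested, with 4 higher and 4 lower (median 0.021). Adm (0.31, adjusted p = 6.04e-06) and Ankrd37 (0.31, 1.89e-09) were higher. Egln1, an oxygen-sensing prolyl hydroxylase (-0.27, 1.29e-07), and Bnip3 (-0.29, 5.66e-06) were lower. In the Lama4-/- library, Dll4 at 104.9 CPM against 78.2 and 84.9 CPM and Egr3 at 41.5 CPM against 20.1 and 22.1 CPM met the rule upwards. Src met it downwards, at 4.23 CPM against 5.87 and 6.09 CPM. No other gene of the 4 lists met it there. Plvap, at 5.30 CPM against 0.961 and 0.886 CPM, lay under the mean of 5 CPM, and the choroid plexus marker sum stood there at 1047 CPM against 155.4 and 99.5 CPM.

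**Figure D5:**
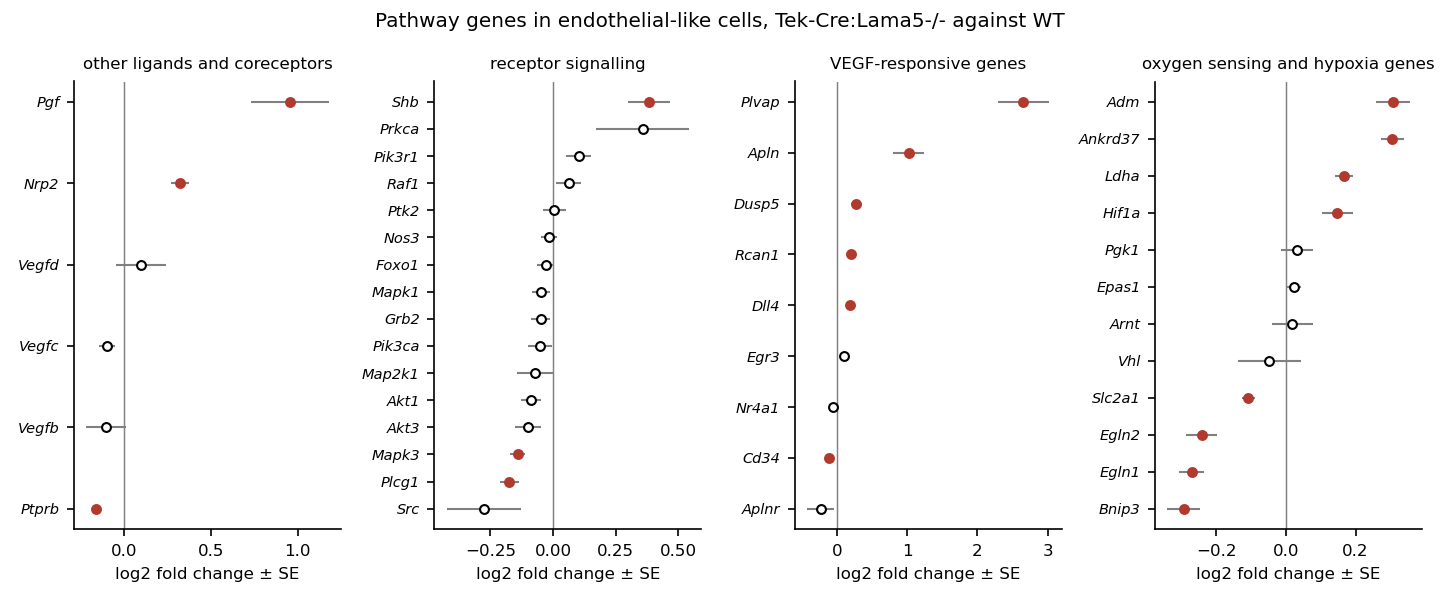
Log2 fold changes ± SE in endothelial-like cells of Tek-Cre:Lama5-/- against WT for the tested genes of the 4 pathway lists, 1 panel a list (n = 2 libraries a group; filled points have an edgeR adjusted p under 0.05). Plvap, Apln and Pgf stand farthest to the right, and the oxygen list has points on both sides of 0.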

How the data were processed

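Single-cell 3′ UMI counts (10x Genomics Chromium) from brain cortical plate were deposited by the authors as gene by cell count matrices, unnormalized. Per the file headers and the submitters' processing notes, Cell Ranger (3.1.0 in the header), Seurat 3.1 and the mm10 build were used; the role of Seurat is not given in the sources used here. The 8 deposited samples held 7 distinct libraries, since both Lama4-/- deposits were identical and were counted as 1 sample.

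Cells with at least 500 genes and at most 15% mitochondrial UMIs were kept, and the highest-scoring doublets were removed at 0.8% per 1000 cells. Cells were clustered on 2000 variable genes and 30 components (Python 3.11.15, igraph 0.11.9) and named "X-like" from marker lists; endothelial-like cells were sub-clustered into zones. UMIs were summed per library and class. Tek-Cre:Lama5-/- was compared with its WT by edgeR 4.0.16 (quasi-likelihood F test, filterByExpr, TMM scaling, R 4.3.3) with Benjamini-Hochberg adjustment over all genes at 0.05; DESeq2 1.42.0 was an alternative. The fit was tested on simulated data. The Lama4-/- library has no replicate, so its ratios, also TMM-scaled, carry exact 95% intervals, which cover counting error only. Depth was 35479306 to 48314458 UMIs a library.

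Alternatives changed the scaling, filters, doublets, resolution, zoning and libraries used. All members were named. From each pathway list, at most 4 genes past the threshold with the largest change were named, with those past the Lama4 rule. Cd34 was added as the 1 lower call of its list. The members and lists were chosen with earlier results of these data known. Promoters are from RefSeq (GRCm38.p6) and gene positions from GENCODE.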

Additional observations from a re-analysis of the deposited data

Results flagged for a closer look

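The effect of Tek-Cre:Lama5-/- on Angpt2 differed between smooth muscle-like and endothelial-like cells by -0.95 on the log2 scale (smooth muscle minus endothelial; edgeR interaction test added after seeing the data, adjusted p = 0.0216, over alternatives 0.000571 to 0.311). Angpt2 was lower in both knockout libraries of smooth muscle-like cells and higher in both of endothelial-like cells, where its own change did not pass (0.15, adjusted p = 0.361). In arterial-like cells alone it was lower in both knockout libraries (-0.30, edgeR adjusted p = 0.567). In capillary-like and venous-like cells it was higher in both (0.40, edgeR adjusted p = 0.0675, and 1.01, 0.186). The call of the difference between classes was lost when either knockout library or WT library 2 was left out.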

How the results depend on the processing

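Of 824 values for single members under the alternatives, 669 kept their direction and side of the threshold, 73 lost the call, 31 gained one, 5 moved and 46 changed sign. Of 278 counts of genes or members, 201 stayed within 1.5 times the value reported. The causes of these changes were not tested, and unscaled totals were chosen as an alternative after seeing the data. With DESeq2, genes called were 862 in endothelial-like cells (against 2498), 6 in pericyte-like cells (against 33), 166 in smooth muscle-like cells (against 501), 415 in microglia-like cells (against 1273), 366 in capillary-like cells (against 1023), 271 in arterial-like cells (against 934), 506 in venous-like cells (against 1151) and 4458 between the WT pools (against 7413). Members called were 0 in endothelial-like cells (against 5), 0 in smooth muscle-like cells (against 3), 0 in capillary-like cells (against 2) and 0 in arterial-like cells (against 1) there. With unscaled totals, members called were 2 in endothelial-like cells (against 5), 1 in smooth muscle-like cells (against 3), 0 in arterial-like cells (against 1) and 2 in venous-like cells (against 1). In the same setting, signs changed to -0.0034 for Kdr in endothelial-like cells, -0.030 for Flt1 in endothelial-like cells, -0.031 for Flt1 in capillary-like cells, -0.051 for Kdr in arterial-like cells, -0.044 for Flt1 in arterial-like cells, -0.018 for Nrp1 in arterial-like cells, -0.079 for Tek in arterial-like cells, -0.048 for Tie1 in arterial-like cells, -0.0048 for Flt1 in venous-like cells and -0.035 for Kdr between the WT pools. Without the low-count filter, genes called were 647 in capillary-like cells (against 1023). Members called were 1 in endothelial-like cells (against 5), 1 in microglia-like cells (against 0), 0 in capillary-like cells (against 2) and 2 in venous-like cells (against 1) there. Signs changed there, to -0.018 for Nrp1 in astrocyte-like cells, 0.00082 for Nrp1 in microglia-like cells and -0.0063 for Tek in arterial-like cells. Under the stricter cell filter (1000 genes, 10% mitochondrial), genes called were 1333 in astrocyte-like cells (against 147). Members called were 1 in astrocyte-like cells (against 0), 1 in microglia-like cells (against 0) and 1 in capillary-like cells (against 2) there. In the same setting, signs changed to 0.0018 for Flt4 in endothelial-like cells, 0.078 for Nrp1 in pericyte-like cells, 0.61 for Vegfa in pericyte-like cells, 0.031 for Angpt1 in pericyte-like cells, -0.48 for Vegfa in astrocyte-like cells and 0.18 for Vegfa in capillary-like cells. From capillary-like cells alone, genes called were 1023 (against 2498). Members called were 2 (against 5) there. Signs changed there, to 0.11 for Flt4 and -0.23 for Vegfa. With doublets kept, genes called were 451 in capillary-like cells (against 1023). Members called were 1 in smooth muscle-like cells (against 3), 1 in astrocyte-like cells (against 0), 1 in microglia-like cells (against 0), 1 in capillary-like cells (against 2) and 2 in venous-like cells (against 1) there. In the same setting, signs changed to 0.20 for Vegfa in pericyte-like cells, -0.95 for Flt1 in astrocyte-like cells, -0.44 for Nrp1 in astrocyte-like cells, 0.012 for Tek in capillary-like cells and -0.018 for Angpt2 in capillary-like cells. With technical genes left out, members called were 1 in microglia-like cells (against 0). At the other clustering resolution, genes called were 430 in capillary-like cells (against 1023). Members called were 0 in capillary-like cells (against 2) and 0 in arterial-like cells (against 1) there. In the same setting, signs changed to -0.0039 for Tek in arterial-like cells and -0.0031 for Tie1 in arterial-like cells. With zones by marker score, members called were 4 in capillary-like cells (against 2), 0 in arterial-like cells (against 1) and 3 in venous-like cells (against 1). In the same setting, signs changed to -0.013 for Tek in arterial-like cells and -0.012 for Tie1 in arterial-like cells.

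With 1 library left out at a time, genes called ran from 1508 to 1952 in endothelial-like cells, from 329 to 470 in smooth muscle-like cells, from 84 to 170 in astrocyte-like cells, from 834 to 939 in microglia-like cells, from 597 to 709 in capillary-like cells, from 557 to 669 in arterial-like cells and from 37 to 61 in the zone interaction. With 1 library left out at a time, members called ran from 0 to 2 in endothelial-like cells, from 0 to 1 in pericyte-like cells, from 1 to 4 in smooth muscle-like cells, from 0 to 1 in astrocyte-like cells, from 0 to 1 in microglia-like cells, from 0 to 2 in capillary-like cells, from 0 to 1 in arterial-like cells, from 1 to 2 in venous-like cells and from 4 to 7 between the WT pools. With 1 library left out, the sign of a log2 value changed in these ranges: Flt4 in endothelial-like cells -0.060 to 0.030, Vegfa in pericyte-like cells -0.84 to 0.78, Angpt1 in pericyte-like cells -0.43 to 0.028, Angpt2 in pericyte-like cells -0.36 to 1.07, Nrp1 in astrocyte-like cells -0.69 to 0.57, Nrp1 in microglia-like cells -0.11 to 0.081, Flt1 in microglia-like cells -0.23 to 1.44, Flt4 in arterial-like cells -0.17 to 0.026, Tek in arterial-like cells -0.054 to 0.069, Kdr in arterial-like cells -0.0044 to 0.067, Flt4 in venous-like cells -0.17 to 0.054 and Vegfa in venous-like cells -0.34 to 0.56. The Angpt2 difference between smooth muscle-like and endothelial-like cells ran from -1.01 to -0.90. With zones by marker score, Angpt2 in venous-like cells passed at 1.13 on the log2 scale (edgeR adjusted p = 0.00723, against 0.186 with zones by sub-cluster). For the Lama4-/- library, dropping the minimum level raised the genes past the rule of size from 592 to 2500. DESeq2 gave no adjusted p for any member in smooth muscle-like cells, nor for Vegfa in arterial-like cells, so its 0 there holds no lost call. The zone interaction was not run with DESeq2 or with the replicate block. Counts were low for Angpt2 in pericyte-like cells (9 to 22 UMIs a library) and Angpt1 in endothelium (24 to 34); whether depth or spread between libraries keeps them from a call was not tested.

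Replicate numbers did not pair the libraries: same-numbered deviations correlated between -0.0335 and 0.0496 across genes. With the replicate number as a block, genes called in pericyte-like cells were 65 against 33, and members called in microglia-like cells 1 against 0. Nrp1 in smooth muscle-like cells passed with the block (edgeR adjusted p = 0.036, against 0.137 without it). All 5 member calls in endothelial-like cells held with the block.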

Other observations

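A small unnamed cluster of 19 cells, led by Plvap, Igfbp3 and Esm1 and holding Kdr among its leading genes, had 12 cells in the Lama4-/- library, 4 and 2 in its WT libraries and 1 in a WT library of the Lama5 experiment. Pooled over its cells, Kdr stood at 2790 CPM, Nrp1 at 1960 CPM, Flt1 at 5821 CPM, Tie1 at 457 CPM and Tek at 300 CPM. Vegfa stood there at 53.8 CPM and Angpt2 at 26.9 CPM. The choroid plexus marker sum in endothelial-like cells was 1047 CPM in the Lama4-/- library against 155.4 and 99.5 CPM in its WT libraries. Whether the uneven cell numbers of the cluster go with choroid plexus tissue or with genotype was not tested. The cluster was chosen for mention after its values were seen, so its Kdr level is a description. No member was among the genes that the clusters were built on.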
